A study of Mus musculus with 8 samples.

Results

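The arrays carried probes for transcripts that are named by a stretch of the mouse genome and a strand rather than by a gene. The intervals described here span less than 10 kb from start to end and have a probe, called a member below, whose signal the scanner software marked as well above background on 4 or more of the 8 arrays. They were 1094 of the 3540 intervals on the array, measured by 2274 of its 55681 probes. Before the filter on dim signals there were 1964 intervals of this length with 6604 probes. Intervals that overlapped, whatever their strand, merged into 970 separate loci, of which 94 held more than 1 interval. Members of 1 interval and strand can share a transcript, so they are not independent. The letters F and R after an interval name its strand in the array design. The samples were whole embryos of the outbred mouse stock CD-1 on gestational day 9. Their dams had received 400 mg/kg hydroxyurea or saline by intraperitoneal injection 3 h earlier. Each group had 4 samples, and the labels do not say whether a sample was a single litter or a pool. The spread behind each p-value is therefore that between samples, which may be partly technical. Total RNA with a single dye, Cy3, was measured on Agilent arrays. In bulk RNA of a whole embryo, fewer cells that make a transcript and less transcript per cell cannot be told apart.

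Much of the mammalian genome between protein-coding genes is transcribed, in part into long noncoding RNAs. Catalogues of such transcripts were drawn up from chromatin marks over promoters and transcribed bodies and from cloned cDNA, and chromatin marks alone do not show which strand is read. Long noncoding RNAs are known for low abundance, for retention of many in the nucleus, and for activity that is often limited to particular tissues and stages of development. Hydroxyurea blocks ribonucleotide reductase, which supplies deoxyribonucleotides, and so stalls DNA replication. The protein p53, named in the series' title, is a transcription factor that DNA damage and replication stress activate. Positions are given as the array files have them, and the file headers name build mm9 (NCBI37) for the arrays of slide 1 only. No gene annotation of that build was used here, so whether an interval lies inside a gene that is now annotated was not examined.

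There were 2 slides, and either slide held 2 saline and 2 hydroxyurea arrays. Between 47.3% and 61.3% of all probes were well above background on an array. Of the members, 99.4% were so on saline 1 and 61.3% on hydroxyurea 3, the highest and the lowest of the 8 arrays. Precision is limited by having 4 arrays in a group. The labelled tissue fitted its markers, since all 14 embryo markers were well above background on all 8 arrays and 0 of them passed the test, with a summed level (log2 of the summed signals, relative to the array's 75th percentile) of 9.26 to 10.2 in hydroxyurea and 9.35 to 9.86 in saline. This sum is close to the level of Hbb-bh1 alone, which was 9.41 in hydroxyurea and 9.44 in saline, so it says little about the other embryo markers. The log2 differences of the 14 lay between -1.16 (Kdr) and 0.35 (T). Of the 30 listed p53 target genes 29 were on the array, and 21 of these rose and 0 fell. Of 8 yolk sac endoderm markers 7 were well above background on all arrays, with summed levels of 4.01 to 6.45 in hydroxyurea and 4.25 to 7.99 in saline. Of 6 trophoblast and decidua markers on the array, 1 was well above background on all 8 arrays, and 3 (Tpbpa, Prl3c1 and Gzmd) on 0 arrays. The summed level of these 6 was 3.41 on hydroxyurea 2 and 6.09 on hydroxyurea 3, and between -3.13 and -1.09 on the other arrays. The part of these tissues in the results below was not tested, and the main counts are also given without both arrays.

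More intervals were lower than higher in hydroxyurea embryos. Of the 2274 members, 185 fell (8.14%) and 34 rose (1.50%), where among all 30780 probes tested 4.29% were lower and 2.52% higher. Both directions together made 9.63% of the members, beside 6.81% of all probes. The 185 falls lay in 116 intervals and the 34 rises in 22 intervals. Falls were also larger: their median log2 difference was -1.78, with a range from -0.56 to -4.31, and 69 of them exceeded 2 on the log2 scale. The rises had a median of 1.13 and a range from 0.65 to 4.84, and 6 of them exceeded 2. The median log2 difference over the members was -0.18, beside 0.021 over all probes tested, and 61.6% of the members lay below 0, beside 47.8% of all probes. This median was -0.015 with normexp, beside 0.040 over all probes. With no filter on dim probes it was 0.11 over the 6604 probes and 0.11 over all probes. The groups did not overlap for 422 members (18.6%), against 15.8% of all probes.

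**Figure D1:**
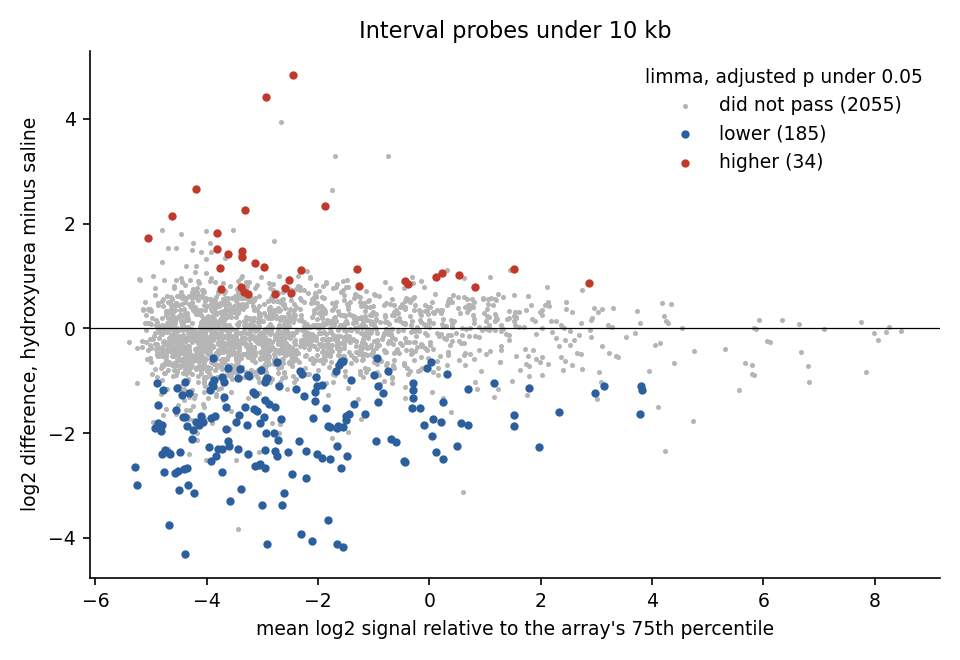
Each point is 1 of the 2274 interval probes under 10 kb, with its mean log2 signal on the x axis and its log2 difference (hydroxyurea minus saline) on the y axis. The 185 probes that were lower lie between -0.56 and -4.31 and outnumber the 34 that were higher. A few grey points with large differences did not pass.

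These calls are from limma with an adjusted p under 0.05 over all probes. All 219 of them kept their sign when any single array was left out, but this was nearly fixed in advance. The groups did not overlap for 176 of the 185 falls and 33 of the 34 rises, so leaving out an array could not turn these. Of the 219 calls, 103 still passed without hydroxyurea 4 and 214 without hydroxyurea 2, the fewest and the most. The number of falls was 400 without hydroxyurea 2, and 97, 106, 109, 104 and 92 without saline 2, saline 3, saline 4, hydroxyurea 1 and hydroxyurea 4. The number of rises was 79 without hydroxyurea 2, and 18, 18, 12, 14 and 11 without saline 1, saline 2, saline 3, hydroxyurea 1 and hydroxyurea 4. Without hydroxyurea 2 and hydroxyurea 3 together, a choice made after seeing the data, 427 members were lower and 87 higher. With the slide as a block 157 were lower and 25 higher. Within slide 1 the median of the members was -0.11, and within slide 2 it was -0.24.

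A probe can pass the filter through a single group. This held for 26 members, which were well above background on the 4 saline arrays and on 0 hydroxyurea arrays, and 23 of them were among the falls. Among the 1315 members that were well above background on all 8 arrays, 87 fell and 24 rose. When only probes of that kind were fitted, 118 of the 1315 (8.97%) were lower and 35 (2.66%) higher, beside 4.12% and 3.71% of all such probes. The members were dim as a group, with a median level of -2.94, which is far under the 75th percentile of the array, beside -0.51 over all probes. With all tested probes cut into 4 classes of equal size by their level, 7.67% of 1186 members fell in the dimmest class, and 8.76% of 708, 9.00% of 289 and 6.59% of 91 in the classes above it. Among probes that are not for such intervals of any length the shares in the same classes were 3.19%, 2.81%, 2.28% and 1.43%.

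The share of falls was highest in the longer intervals. Of members in intervals of 5 to 10 kb 12.9% of 979 fell. In shorter intervals the share lay close to that of all probes, with 4.34% of 715 under 1 kb, 5.47% of 256 from 1 to 2 kb and 4.32% of 324 from 2 to 5 kb. Probes of intervals of 10 kb or more, which are not members, fell in 15.8%, 16.6% and 16.2% of cases for 10 to 20 kb, 20 to 50 kb and 50 kb or more. The median log2 difference was -0.26 in the class of 5 to 10 kb, beside -0.15, -0.0056 and -0.0089 in the 3 shorter classes from the shortest up. The median level was -2.98 in the shortest and -2.95 in the longest class of members. The share of rises was 0.84% in the shortest class and between 1.74% and 1.95% in the others, all below the 2.52% of all probes. Probes of 1 interval are not independent, so these shares are descriptions without a test.

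**Figure D2:**
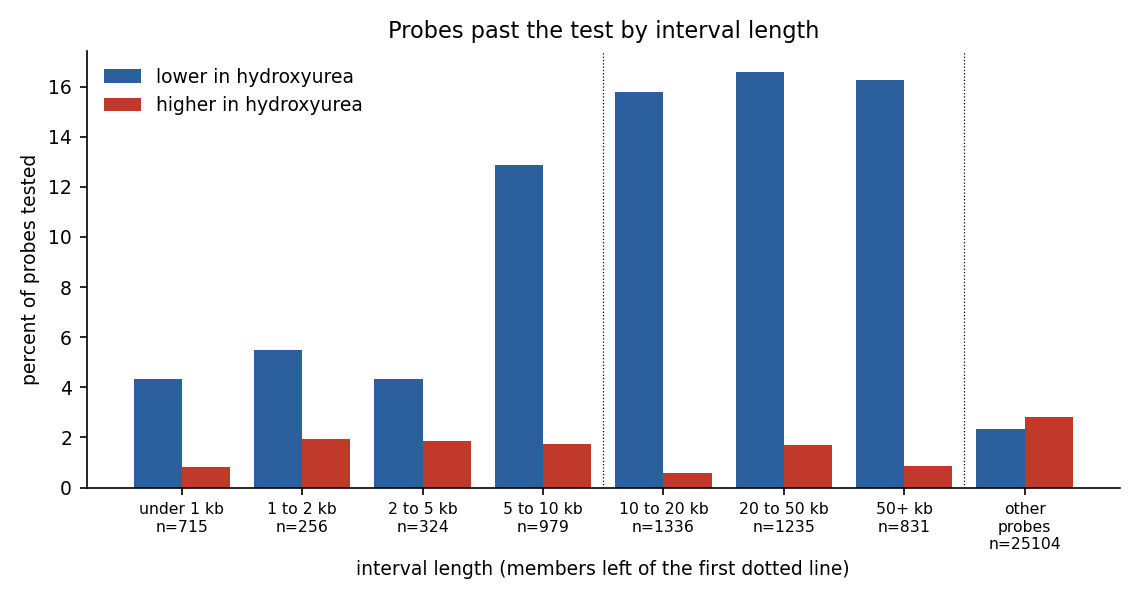
Bars give the percent of tested probes that were lower (blue) or higher (red) in hydroxyurea for each class of interval length in kb, with the number of probes under each class and all probes that are not of this kind at the right. Lower probes make up 12.9% of the class of 5 to 10 kb and between 4.32% and 5.47% of the shorter classes.

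The strands were represented about equally, with 1113 F and 1161 R members. Of the F members 115 (10.3%) fell and 12 (1.08%) rose, and of the R members 70 (6.03%) fell and 22 (1.89%) rose. This difference lay mostly in intervals of 5 to 10 kb, where 18.5% of 444 F members and 8.22% of 535 R members were lower. In intervals under 1 kb the shares were 4.63% of 367 and 4.02% of 348. In the class of 5 to 10 kb the design also differed, since 235 intervals carried probes on both strands and the rest on 1. Falls made up 10.6% of the 783 members in intervals with both strands and 21.9% of the 196 members in intervals of that class with 1 strand. No test was made, because several probes of a few intervals make up each count.

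The largest rise was in a short interval on chromosome 4, chr4:149445201-149445902 F, 701 bases long (rise 1 in the plot of single arrays). Its leading probe stood at -0.046, 0.60, -2.01 and 1.31 on hydroxyurea arrays 1 to 4, and at -4.60, -5.10, -6.59 and -3.23 on saline arrays 1 to 4 (log2 signal relative to the array's 75th percentile, as for all levels below). Every hydroxyurea array lay above every saline array, and hydroxyurea 3 was the lowest of its group. The difference was 4.84 ± 0.81 (SE, n = 4 per group, adjusted p = 0.0099), and 2 of the 4 saline arrays had no signal well above background for this probe. The other probes of this interval, both members, rose by 2.35 and 4.42 and passed. With normexp, a background correction that compresses dim signals, the leading probe stood at 2.44 and still passed.

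A pair of overlapping intervals on chromosome 8 followed, chr8:108153471-108159346 R (rise 2) and chr8:108153471-108159672 R (rise 4), which share their start and are not independent. The leading probe of the first stood at -2.91, -2.05, -3.97 and -2.48 on the hydroxyurea arrays and at -5.06, -5.93, -6.56 and -4.54 on the saline arrays. The groups did not overlap, and the difference was 2.67 ± 0.51 (adjusted p = 0.016). The probe was above background on 1 saline array, and with normexp the difference was 0.77 and passed. Of its 4 measured probes 3 passed, and the fourth stood at 0.87. The leading probe of the second interval lay between -4.33 and -3.04 in hydroxyurea and between -6.97 and -5.03 in saline, where it too was above background on 1 array. It had a difference of 2.14 ± 0.44 (adjusted p = 0.023), and 2 of its 4 measured probes passed, with the others at 1.63 and -0.18. The call of the first was lost without saline 2 (adjusted p = 0.052) or hydroxyurea 4 (0.057), and that of the second without saline 3 (0.054), hydroxyurea 1 (0.074) or hydroxyurea 4 (0.076).

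A separate interval on that chromosome, chr8:27925064-27934895 R (rise 3), had the smallest adjusted p of the 10 named rises. Its leading probe lay between -2.73 and -1.72 on the hydroxyurea arrays and between -4.70 and -4.22 on the saline arrays. The difference was 2.27 ± 0.23 (adjusted p = 0.0013), with 2.26 on slide 1 and 2.28 on slide 2. It stood at 1.01 with normexp and passed, and the other probe of the interval rose by 0.77.

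The other named rises were between 1.13 and 1.83 on the log2 scale. For chr13:99870660-99877535 F (rise 5) hydroxyurea arrays lay between -3.07 and -2.70 and saline arrays between -5.66 and -3.90, a rise of 1.83 ± 0.34 (adjusted p = 0.015). Its other measured probe rose by 1.15, and for both probes 2 of the 4 saline arrays had no signal well above background. For chr8:40257009-40258777 F (rise 7) hydroxyurea arrays lay between -3.66 and -2.65 and saline arrays between -4.93 and -4.27, a rise of 1.52 ± 0.25 (adjusted p = 0.0097). This was the only measured probe of 3 in its interval. In chr10:62267317-62269871 R (rise 10) every probe of the design rose. Its 3 probes were all measured and rose by 1.13, 1.01 and 0.99, with hydroxyurea arrays of the leading probe at 2.50, 1.71, 1.98 and 2.15 and saline arrays at 0.84, 1.20, 0.79 and 0.96. This rise changed little with normexp (1.04).

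In chr15:62090565-62091770 F (rise 8) the leading probe lay between -3.83 and -2.57 in hydroxyurea and between -4.69 and -4.11 in saline. It rose by 1.43 ± 0.30 (adjusted p = 0.024), while its other probes at 0.77 and 0.81 did not pass. Leaving out any of saline 1, saline 2, saline 3, hydroxyurea 1 and hydroxyurea 4 took its adjusted p to between 0.052 and 0.078. In chr18:61781410-61788685 R (rise 6) the hydroxyurea arrays lay close together, between -4.35 and -4.10, and the saline arrays between -7.01 and -4.85, with 1 saline array above background. The probe rose by 1.73 ± 0.38 (adjusted p = 0.030), but its other measured probe stood at 0.91 without passing, and leaving out any of saline 1, saline 4, hydroxyurea 1, hydroxyurea 3 and hydroxyurea 4 took its adjusted p to between 0.063 and 0.083. In chr18:36452279-36454825 F (rise 9) hydroxyurea arrays lay between -2.58 and -2.16 and saline arrays between -3.94 and -3.23. It rose by 1.18 ± 0.19 (adjusted p = 0.0087), with other probes at 0.97 and 0.57 that did not pass. With normexp the second of the overlapping intervals on chromosome 8 stood at 0.56, chr13:99870660-99877535 at 0.57, chr8:40257009-40258777 at 0.51, chr18:61781410-61788685 at 0.40 and chr18:36452279-36454825 at 0.49, and these 5 did not pass.

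**Figure D3:**
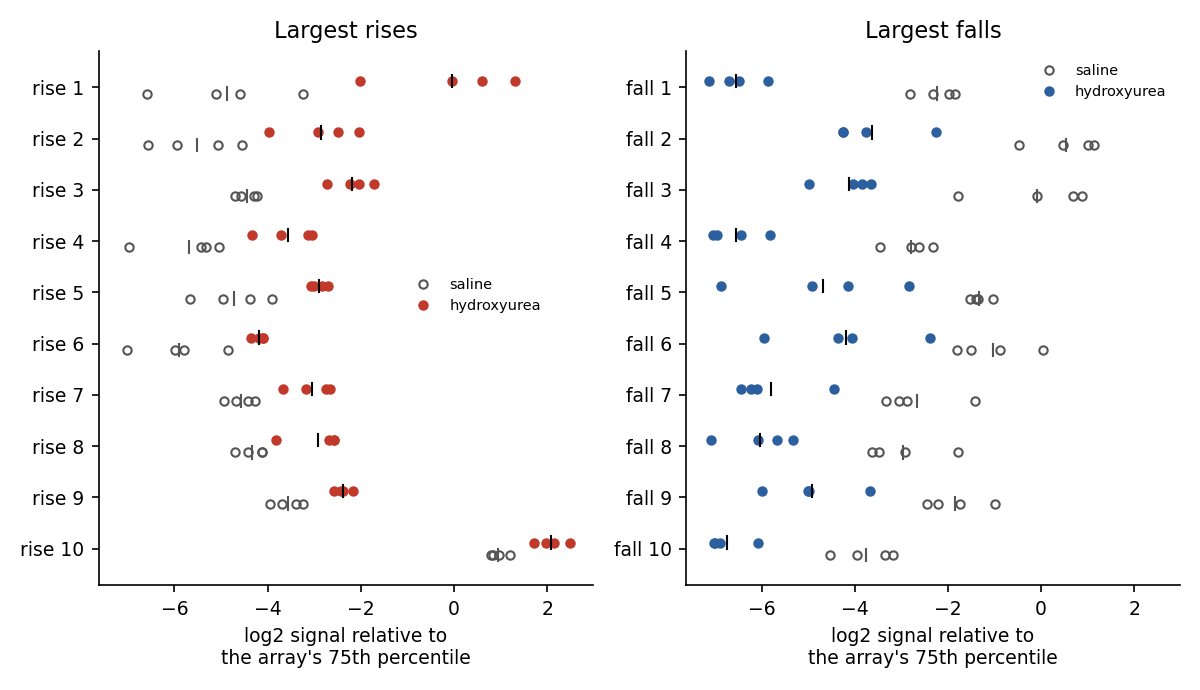
Each dot is 1 array, with the log2 signal relative to the array's 75th percentile on the x axis, for the 10 largest rises (left) and the 10 largest falls (right) in the order of their size. Open dots are saline, filled dots hydroxyurea and short lines the group means, and the groups overlap in 0 of the 20 probes because that was required for naming.

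The largest fall came from a probe of chr14:99729955-99730583 F, an interval of 628 bases (fall 1). It stood at -7.13, -6.49, -5.86 and -6.70 on hydroxyurea arrays 1 to 4 and at -2.82, -1.85, -1.98 and -2.32 on the saline arrays. It was well above background on all 4 saline arrays and on 0 hydroxyurea arrays, so it passed the filter through saline alone. It was lower in hydroxyurea by at least 19.5-fold (adjusted p = 0.00020 on the measured values). This is a bound, in which each dim array enters at its own weakest signal marked as above background, or at the probe's signal where that was higher. The other measured probe of this interval did not fall with it: it stood at -0.074 (adjusted p = 0.93) and was well above background on all 8 arrays. The fall of the first probe was -1.02 with normexp and passed.

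On the same chromosome chr14:65431652-65437902 F (fall 2) fell on each of its 4 measured probes, of 10 in the design. The leading probe stood at -4.26, -2.27, -4.26 and -3.76 on the hydroxyurea arrays and at -0.48, 1.0, 0.48 and 1.13 on the saline arrays. Its difference was -4.17 ± 0.50 (adjusted p = 0.0024), and the 3 other probes fell too, with -4.12, -4.11 and -3.37. The array hydroxyurea 2 was the highest of its group on all of these probes. With normexp the leading probe stood at -2.61 and passed.

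A very short interval on the X chromosome, chrX:98716130-98716340 R (fall 3), spans 210 bases and is measured by 2 probes. The leading probe stood at -4.04, -3.65, -3.85 and -4.99 on the hydroxyurea arrays and at -1.78, 0.89, -0.097 and 0.69 on the saline arrays, where saline 1 was the lowest. The difference was -4.06 ± 0.56 (adjusted p = 0.0046), and the other probe fell with -3.65. The leading probe was well above background on 2 of the 4 hydroxyurea arrays, and with normexp it stood at -2.37 and passed. The single measured probe of chr19:53624826-53625580 R (fall 4) lay between -7.04 and -5.81 in hydroxyurea and between -3.46 and -2.31 in saline. It was well above background on 0 hydroxyurea arrays. Computed as for fall 1, it was 13.6-fold lower (adjusted p = 0.00048 on the measured values), with -0.74 under normexp, which still passed.

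The remaining named falls were between -3.36 and -2.99. chr16:32388843-32395264 R (fall 5) fell on both measured probes, with -3.36 ± 0.70 (adjusted p = 0.023) and -3.30. On the first, saline arrays lay between -1.52 and -1.04, and hydroxyurea arrays spread from -6.87 on hydroxyurea 1 to -2.84 on hydroxyurea 2. Under normexp it stood at -1.34 and passed. chr6:47915489-47916089 F (fall 6), measured by 1 probe, stood at -3.14 ± 0.69 (adjusted p = 0.029). The probe was well above background on 2 of the 4 hydroxyurea arrays, and with normexp it stood at -1.37 and passed. Saline arrays lay between -1.81 and 0.036, and hydroxyurea arrays again had a wide range, from -5.95 on hydroxyurea 1 to -2.38 on hydroxyurea 2. Both calls depended on single arrays. That on chromosome 16 was lost without any saline array or hydroxyurea 4 (adjusted p between 0.053 and 0.071), and that on chromosome 6 without saline 2, saline 3, saline 4, hydroxyurea 1, hydroxyurea 3 or hydroxyurea 4 (between 0.054 and 0.083).

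For the single measured probe of chr10:5950116-5958250 F (fall 7) hydroxyurea arrays lay between -6.45 and -4.45 and saline arrays between -3.33 and -1.42, a difference of -3.14 ± 0.52 (adjusted p = 0.0094), with -0.82 under normexp, which passed. In chr12:110845020-110850870 R (fall 9) the leading probe lay between -6.00 and -3.66 in hydroxyurea and between -2.44 and -0.99 in saline. Its difference was -3.07 ± 0.48 (adjusted p = 0.0077), and the other measured probe fell with -1.95. Under normexp the leading probe stood at -1.12 and passed. Falls 5, 7 and 9 were each above background on 1 of the 4 hydroxyurea arrays. chr3:51784862-51793999 F (fall 8) was well above background on 0 hydroxyurea arrays. Its leading probe was 8.31-fold lower, computed as for fall 1 (adjusted p = 0.0073 on the measured values). Its hydroxyurea arrays lay between -7.09 and -5.32 and its saline arrays between -3.63 and -1.78, and the other measured probe fell with -2.74. chr3:51138643-51146693 R (fall 10), also above background on 0 hydroxyurea arrays, was 7.82-fold lower by the same reckoning (adjusted p = 0.0017 on the measured values). Like fall 1, falls 4, 8 and 10 passed the filter through saline alone. Under normexp falls 8 and 10 stood at -0.64 and -0.44 and did not pass. All 20 named probes passed with the slide as a block. Their sign was the same on each slide, but the rule that the groups do not overlap fixed this in advance.

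Several probes for the same interval and strand gave a check within the array. Of the 1212 combinations of interval and strand with a member, 594 had 2 or more, and in 416 of these (70.0%) all members had the same sign. The other members beside a probe that fell had the same sign in 95.3% of 405 pairs and passed as lower in 53.8%. Of all members 61.6% lay below 0. A probe is counted once for each called probe beside it, so combinations with many calls weigh most. Of the 122 combinations with a fall, which include those with 1 member, 35 held 2 or more. Of the 22 with a rise, 9 did. Beside a probe that rose, 91.0% of 67 such pairs had the same sign and 44.8% passed as higher. No combination held both a rise and a fall. In 20 combinations with 2 or more members every member fell, and in 5 every member rose.

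At least 4 probes fell for 9 combinations of interval and strand. The design fixes that these are intervals of 5 to 10 kb, since shorter intervals have at most 3 probes a strand and these up to 10. chr4:126009815-126015875 F fell on all 6 measured probes, with differences from -2.87 to -2.30. All 5 measured probes fell for chr18:24239025-24246898 F (-2.25 to -1.41) and for chr4:40720362-40729687 F (-2.64 to -1.27). All 4 fell for chr13:76326228-76332632 R (-2.40 to -1.75) and chr6:135294099-135300310 F (-2.16 to -1.45). For chr11:55315017-55322092 R 4 of 7 fell, and for chr2:60581618-60589907 F and chr4:131734714-131742542 F 4 of 5 each. Among shorter intervals chr19:5795690-5797464 F fell on all 3 of its probes, with -2.26 to -1.16, and chr12:74140325-74142695 F on all 3, with -1.69 to -1.51. These intervals were chosen for their number of calls after the values were seen.

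The design placed probes on both strands of 235 intervals, all in the class of 5 to 10 kb. Of these, 118 had members on both strands, 34 on F only, 58 on R only and 25 on neither. For the 118 intervals the log2 difference of the F probes was set against that of the R probes, so that no probe's level is compared with another's. The responses differed between the strands in 27 of the 118 (22.9%) by limma at an adjusted p under 0.05 over the 118. Some of the 118 share a start and are not independent. Among the 27 these include chr12:103151385-103157735 and chr12:103151385-103157796. In 19 of the 27 the F strand lay lower than the R strand in its difference, and in 8 the R strand. F probes fell in 29 intervals, R probes in 16 and both in 6, while F probes rose in 1 interval, R probes in 5 and both in 0. The F and R differences did not follow each other across intervals, with Pearson's r of -0.012 and Spearman's rho of -0.017 over 118 intervals on the same 8 arrays, given as a description. Both strands lay below 0 in 73 intervals, both above 0 in 3 and on opposite sides in 42.

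**Figure D4:**
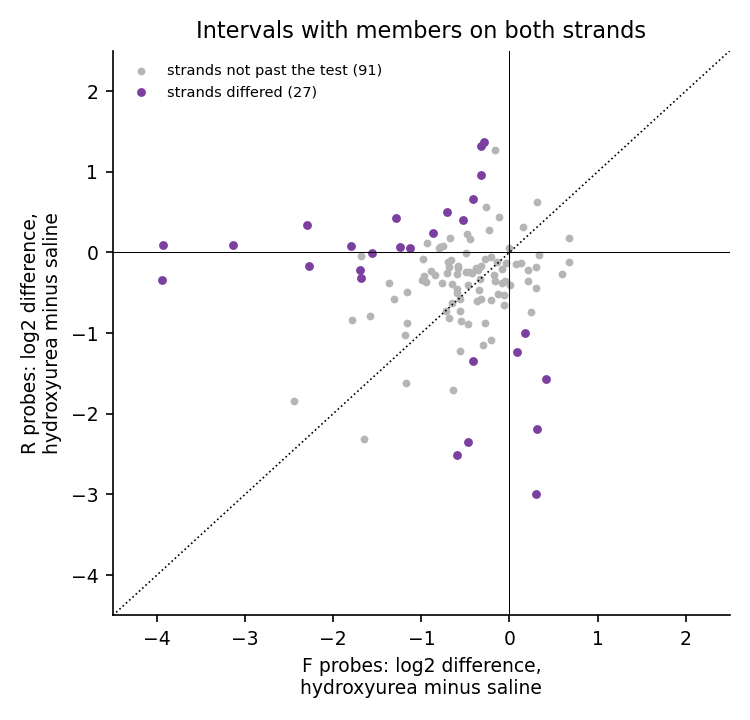
Each point is 1 of the 118 intervals with members on both strands, with the log2 difference (hydroxyurea minus saline) of its F probes on the x axis and of its R probes on the y axis. Points on the dotted line would have equal differences. The 27 purple points, whose strands differed, lie mostly along both axes, where the difference of 1 strand is below 0 and that of the other near 0.

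The 5 pairs with the lowest p show this pattern in detail. In chr3:51138643-51146693 the F probe stood at 1.90, 1.58, 1.82 and 1.45 on the hydroxyurea arrays and at 1.44, 1.82, 1.19 and 1.07 on the saline arrays, which overlap. The R probe fell from a saline range of -4.52 to -3.19 to a hydroxyurea range of -7.01 to -6.07. The R probe was well above background on 0 hydroxyurea arrays, and these arrays were entered as for fall 1. The F difference then exceeded the R difference by 3.27 (adjusted p = 0.00030 on the measured values), which is not a firm minimum. In chr14:65431652-65437902 the 4 F probes together had a difference of -3.94 and the 7 R probes of -0.35, a gap of -3.59 ± 0.50 (adjusted p = 0.0013), and 1 of the 7 R probes also fell. With no filter on dim probes, which adds the dim probes of both strands, this gap was -1.36 and did not pass (adjusted p = 0.076).

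In chr12:103151385-103157735 the F probes had a difference of -2.30 and the R probe of 0.34 (gap -2.64 ± 0.40, adjusted p = 0.0015). These 2 F probes were well above background on 0 and 1 of the 4 hydroxyurea arrays. With normexp the gap of this pair was -0.53 (adjusted p = 0.19) and that of the pair on chromosome 3 was 0.76 (0.068), and neither passed. In chr1:173250734-173259306 the R probe stood at -2.35, from a saline range of -1.27 to -0.88 to a hydroxyurea range of -3.91 to -2.79, while the F probe stood at -0.48 with overlapping groups (gap 1.87 ± 0.29, adjusted p = 0.0015). With no filter on dim probes this gap was 0.61 (adjusted p = 0.39). In chr10:5950116-5958250 the F probe stood at -3.14 and the mean of 5 R probes at 0.094 (gap -3.23 ± 0.51, adjusted p = 0.0015). This F probe is 1 of 10 in the design and was well above background on 1 of the 4 hydroxyurea arrays, and with all probes of both strands the gap was -0.27 (adjusted p = 0.88). Several further pairs that passed also had an R mean above 0 and an F mean below 0, and 2 of them are described here. Others include chr5:35975265-35982561 (F -0.41, R 0.66) and chr8:26343277-26352902 (F -0.71, R 0.51). In chr18:61781410-61788685 the R probes had a mean difference of 1.32 and the F probes of -0.33 (gap -1.65 ± 0.27, adjusted p = 0.0018). There 1 R probe passed as higher and 1 F probe as lower, but this R probe did not pass with normexp (0.40). Its call was also lost on leaving out any of 5 single arrays. In chr8:108153471-108159346, which holds the second named rise, the R mean was 1.36 and the F mean -0.29 (gap -1.65 ± 0.35, adjusted p = 0.0074). Here 0 F probes passed. The overlapping chr8:108153471-108159672 had a gap of -1.43 that did not pass (adjusted p = 0.13). F differences of this size were common: the 330 F members of intervals with probes on both strands had a median of -0.37. These pairs are outside the 5 with the lowest p and were chosen after their values were seen. The number of pairs called was 22 with the slide as a block, between 18 and 31 without any single array, and 40 without hydroxyurea 2 and hydroxyurea 3 together.

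Members came from every autosome and the X chromosome, between 72 on the X chromosome and 188 on chromosome 8. Falls made up 17.9% of the 134 members on chromosome 4 and 13.2% of the 121 on chromosome 6, the highest shares among the chromosomes, against 3.37% on chromosome 15 and 3.53% on chromosome 10, the lowest, beside 4.29% of all probes tested. The 24 falls on chromosome 4 lay in 11 intervals. There chr4:126009815-126015875, chr4:40720362-40729687 and chr4:131734714-131742542 gave 15 of them between them, with 6, 5 and 4 probes. Chromosome 8 held the most rises, 9 members in 5 intervals (4.79%, beside 2.52% of all probes tested), and 5 of its rises are probes of the pair that starts at position 108153471. Chromosomes 9, 11, 12, 14, 16, 19 and X held 0 rises. The X chromosome had the highest median log2 difference, 0.14, and chromosome 11 the lowest, -0.43. No chromosome was tested against another.

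**Figure D5:**
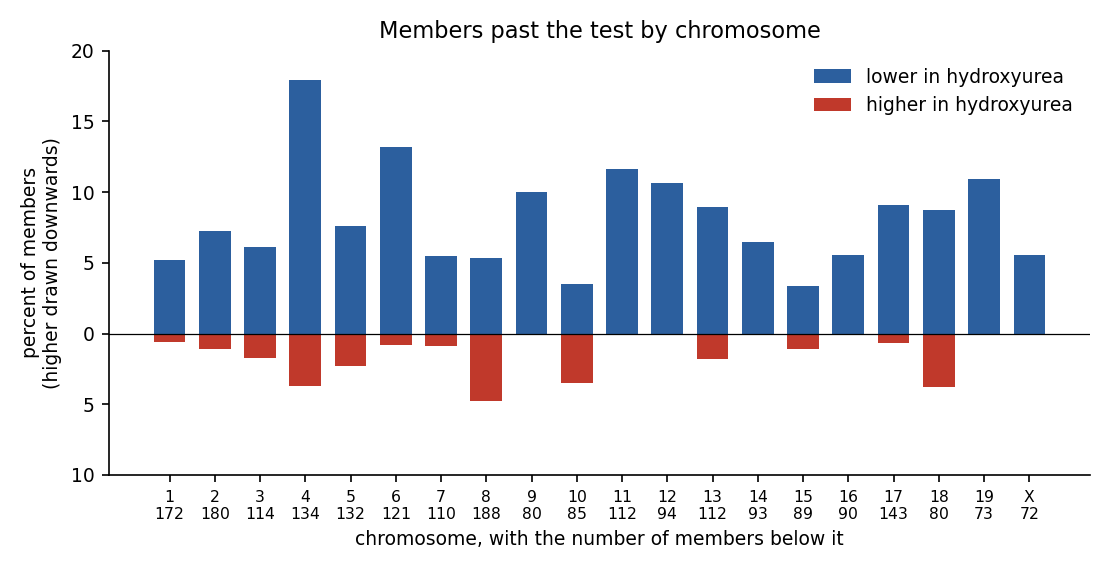
Bars give the percent of members on each chromosome that were lower (blue, upwards) or higher (red, downwards) in hydroxyurea, with the number of members under each chromosome. Chromosome 4 has the largest share of lower members (17.9% of 134) and chromosome 8 the largest share of higher members (4.79% of 188).

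The hydroxyurea arrays were not alike in the size of the falls. Over the 185 probes that fell, the median difference from the saline mean was -1.92 on hydroxyurea 1, -1.07 on hydroxyurea 2, -1.63 on hydroxyurea 3 and -2.07 on hydroxyurea 4. The array nearest to saline was hydroxyurea 2 for 124 of the 185, hydroxyurea 3 for 37, hydroxyurea 1 for 16 and hydroxyurea 4 for 8. Of the 34 rises, hydroxyurea 2 was nearest for 15, hydroxyurea 3 for 14, hydroxyurea 1 for 5 and hydroxyurea 4 for 0. Hydroxyurea 2 and hydroxyurea 3 were also the arrays with the highest summed level of trophoblast and decidua markers, whose part in these values was not tested.

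The authors' deposited table lists 1346 probes, of which 137 are members. Among these 137, the values in the authors' deposited table were lower in hydroxyurea for 115 (83.9%) and higher for 22, beside 58.9% lower among all its probes. The deposited values come from the same 8 arrays, so the same sign here for all 137 is no independent check. Of the 137, 132 passed here, 111 as lower and 21 as higher. A further 87 members passed here that the authors' deposited table does not list, and its threshold is not given in the sources used here.

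At the limit of length, the longest members were 9950 bases long and had log2 differences of -0.27, -0.077 and 0.32. The shortest probes outside it, of an interval of 10000 bases, stood at 0.28, -0.0068 and -0.38. At the limit of detection, the 179 members well above background on 4 arrays had a median difference of -0.22 (SD 1.05 over probes), and the 229 interval probes with 3 such arrays had -0.27 (SD 0.87).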

How the data were processed

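Per the submitters' processing notes and the file headers, the authors extracted 1-colour intensity values with Agilent Feature Extraction 11.5.1.1, and the processed signal is background-subtracted with no scaling between arrays. The authors' deposited table holds log2 values from which each probe's median had been subtracted. Its normalization and test were not given in the sources used here. Both slides were scanned separately, at 3 and 5 micrometres per pixel.

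From the processed signal, spots marked as outliers (151 to 315 per array) were left out, log2 values were averaged per probe, and the array's 75th percentile over the 55681 probes that are not controls was subtracted. No spot was saturated (0 per array). A probe was kept where any of its spots was well above background on at least 4 arrays, which gave 30780. In R 4.3.3, limma 3.58.1 with eBayes and no covariate compared hydroxyurea with saline over all 30780, two-sided, with Benjamini-Hochberg adjustment. An SE is that of this fit. A left-out spot removed an array for 10 members, none of them called (0). Strands were compared by the same fit on the F mean minus the R mean of each interval. The fits were tested on simulated data.

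The members, the marker and p53 lists and the tests were chosen with earlier results of these data known. The rule for naming took called members whose groups do not overlap, 1 per interval and strand: the top 10 by size in either direction, and the 5 strand pairs with the lowest p. A part of the rule that needs positions of genes near an interval was not applied, since the files give none. Probe sequences were not used here. Alternatives were normexp (offset 50) on the median signal, quantile normalization, median centring, other filters, the slide as a block or alone, the mean of an interval's probes, and leaving out arrays.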

Additional observations from a re-analysis of the deposited data

Results flagged for a closer look

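Among the 20 named probes and the share of members well above background, 42 groups of 4 arrays were examined for an array far from the others, and 2 were found, where chance alone gives about 1 in 20 groups. For chr15:62090565-62091770 F the array hydroxyurea 3 stood at -3.83, while the other hydroxyurea arrays lay between -2.67 and -2.57. For chr3:51138643-51146693 R the array hydroxyurea 3 stood at -6.07, while the others lay between -7.01 and -6.89, and the probe was well above background on 0 of the 4.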

How the results depend on the processing

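The 219 calls all kept their sign under each alternative that tested them. For single slides and left-out arrays this mostly follows from groups that do not overlap. Of the 219, 210 passed under quantile normalization, 188 with median centring, 173 with the slide as a block and 116 with normexp. With no filter on dim probes, 14 of 6604 probes were higher (0.21%) and 101 lower (1.53%), beside 0.50% and 1.14% of all probes, the median difference was 0.11 (0.11 over all probes), and 11 strand pairs differed. With probes well above background on all 8 arrays 118 were lower and 16 of 64 strand pairs differed; fewer probes were tested there. With normexp the median was -0.015; the cause was not tested. With 1 value per interval and strand 15 of 1212 were higher and 92 lower. Slide 1 alone, with fewer samples, gave 2 higher, 4 lower and 0 strand pairs by limma (20 at an unadjusted p under 0.05), and slide 2 alone 0 higher and 0 lower by limma (73 and 361 at an unadjusted p under 0.05) and 4 strand pairs. Over all probes slide 1 alone gave 25 higher and 27 lower, and slide 2 alone 0 and 3. Without single arrays the number higher ranged from 11 to 79, the number lower from 92 to 400, the median from -0.25 to -0.12 and the strand pairs from 18 to 31. Over all probes the number higher then ranged from 257 to 2214 and the number lower from 605 to 2647. Without hydroxyurea 2 and hydroxyurea 3, chosen after seeing the data, 87 were higher and 427 lower, beside 1810 and 2910 of all probes. Median centring moved the median of all probes from 0.021 to 0.14, and that of the members to -0.060. Of the 20 named probes 14 passed without any single array, and 7 did not pass with normexp. No paired analysis was possible because the labels give the samples no replicate numbers.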

Other observations

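Some members had differences above 2.5 on the log2 scale, in size, that did not pass, with values that differed widely within a group. The array hydroxyurea 3 alone was high for chrX:12760566-12761600 F (8.37, other arrays between -5.03 and -3.51), for chr16:90103524-90104408 R (9.45, others between -4.00 and -2.77) and for chr8:119090566-119097735 F (7.58, others between -3.67 and -2.69). For chr8:26870059-26870530 F the saline arrays themselves split, with 2.42 and 0.54 on saline 1 and saline 4 and -6.29 and -6.20 on saline 2 and saline 3, while the hydroxyurea arrays lay between -0.095 and 1.38.

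In other members hydroxyurea 2 stayed among the saline arrays while the other hydroxyurea arrays were low. A probe of chr17:35080914-35090009 R stood at -1.75 on hydroxyurea 2 and at -6.37, -6.16 and -7.18 on the others, with saline between -2.28 and -0.54. Its difference of -3.84 did not pass (adjusted p = 0.060). chr3:87575891-87576343 F stood at 1.87 on hydroxyurea 2, within the saline range of 1.63 to 2.77, and at -4.30, 0.61 and -2.02 on hydroxyurea 1, 3 and 4.

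Of the 130 called loci, 2 pairs lay within 50000 bases of each other. No such count over all 970 loci is given here for comparison. In the pair on chromosome 3, 2 probes of chr3:51784862-51793999 F fell and 2 probes of chr3:51804655-51805883 R, which starts 10656 bases further on, rose. In the pair on chromosome 6, chr6:47915489-47916089 F and chr6:47926997-47927875 F both fell. Across the 8 arrays, the member of another locus most like the leading rise was a probe of chr8:108153471-108159346 R (Pearson's r = 0.99), and the one most like the leading fall was chr4:152297604-152298076 R (r = 0.99), which both follow in part from the difference between the groups.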
